A study of Mus musculus with 24 samples.

Results

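Semaphorins and their receptors were followed through adipocyte cultures of 2 mouse fat depots in which Senp2, Cebpb or both had been targeted. The set was chosen by symbol from the protein-coding genes of the count table: Sema3 to Sema7 with a letter from a to g, the plexins of classes A, B, C and D, Plxdc1 and Plxdc2, and Nrp1 and Nrp2. It held 33 of the 53465 genes, namely 20 semaphorins (7 of class 3, 6 of class 4, 2 of class 5, 4 of class 6 and 1 of class 7), 9 plexins, 2 Plxdc genes and 2 neuropilins. Cells of the stromal vascular fraction (the mixed cells left after fat cells are removed) of epididymal (eWAT) or inguinal (iWAT) white fat were differentiated in culture, and their poly(A) RNA was sequenced. Control mice (Cont) carried Senp2flox/flox alleles, and knockout mice (aKO) carried Senp2flox/flox together with Adipoq Cre. Both genotypes therefore share the floxed alleles, and Cre driven by Adipoq, the adiponectin gene, acts in adipocytes, so other cells of an aKO culture can keep Senp2. Cells received siNS, which the labels do not explain, or siC/EBPb, an siRNA against Cebpb, a transcription factor gene of early fat cell differentiation. All cultures were induced for 2 days with 1 µmol/l dexamethasone, 0.5 mmol/l isobutylmethylxanthine and 0.1 mg/ml insulin, and kept for 5 more days with 1 µg/ml insulin, with 10% serum in the medium. Each of the 8 groups of depot, genotype and siRNA had 3 libraries. The labels do not give ages or say whether replicates were separate animals or cultures, and p-values therefore reflect the spread among these libraries alone, which may be technical.

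Semaphorins are secreted or membrane-bound cues, first known for repelling growing axons, and plexins are their main receptors. A plexin that binds a semaphorin acts through its cytoplasmic GTPase-activating domain on small GTPases, which changes the actin skeleton and cell adhesion. Most secreted class 3 semaphorins cannot bind plexins alone and use a neuropilin as coreceptor, while classes 4 to 7 bind plexins directly. Neuropilins are also coreceptors of vascular endothelial growth factors, so the same receptors serve vessels, nerves and immune cells of fat tissue. Plxdc1 and Plxdc2 encode membrane proteins with a plexin-like domain that are known as receptors of pigment epithelium-derived factor, not of semaphorins.

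Gene counts ranged from 8435494 to 15388744 per library in 23 libraries. Replicate 2 of iWAT aKO siNS had 603585, and is called the shallow library below. The targeted Cebpb was lower in every siC/EBPb library than in the matching siNS libraries. Its group means were 115 to 168 CPM with siNS and 18.5 to 50.4 CPM with siC/EBPb (CPM, counts scaled to a common library size). Less Cebpb remained under siC/EBPb in aKO than in Cont. The libraries had 20.1 to 32.6 against 42.3 to 57.3 CPM in eWAT, and 12.7 to 23.5 against 33.7 to 37.6 in iWAT. The part of this in genotype differences under siC/EBPb and in interactions was not tested. Senp2 had group means of 47.6 to 54.5 CPM in all 8 groups, so its level does not check the genotype labels. Markers of fat cells were present, with a summed level of 716 to 3940 CPM over 13 adipocyte markers. Beside them, 10 markers of fibroblasts and progenitors summed to 21800 to 59100 CPM. Outside iWAT aKO siNS, the group of the shallow library, that sum reached at most 36300 CPM. The cultures also held signal of 14 leukocyte markers, at 1840 to 2670 CPM in Cont siNS and 823 to 1630 in aKO siNS libraries, mostly from macrophage genes. Cd3e, a T cell marker, had 0 counts in all 24 libraries, and Cd79a, a B cell marker, had 10 in all. In such bulk samples, fewer cells of a type and less RNA per cell cannot be told apart.

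The 6 highest genes were plexins, neuropilins and Plxdc2, while other receptors lay among or below the semaphorins. Compared per length, as RPKM (CPM divided by the summed exon length in kilobases), Plxnb2, a receptor of class 4 semaphorins, was the highest, with a median of 64.2 RPKM over the 24 libraries. Plxna1, a receptor of class 3 and class 6 semaphorins, followed with 52.7, and then Plxdc2 with 16.9, Plxnd1 with 16.4, Nrp1 with 12.4 and Nrp2 with 10.6. The group means of Plxdc2, Plxnd1, Nrp1 and Nrp2 overlapped, as did those of Plxnb2 and Plxna1, so the order within these runs was not fixed. The highest semaphorin over all libraries was Sema7a, the only one held to the membrane by a lipid anchor, with a median of 8.99 RPKM. Its rank was not fixed either. Sema3c had a higher group mean in Cont siC/EBPb (10.3 against 9.05 RPKM in eWAT, 11.4 against 7.9 in iWAT). Sema3b did in aKO siNS (7.39 against 3.01 in eWAT, 7.56 against 3.34 in iWAT). Sema4c, Sema3c, Sema3b and Sema4b lay between 5.18 and 5.48. The plexins Plxnc1, Plxna4, Plxna2, Plxna3 and Plxnb1 had medians of 5.04, 4.54, 1.97, 1.43 and 0.24 RPKM. At the low end, Sema4f, Plxnb3 and Sema5b had 76, 48 and 33 counts in all 24 libraries together. These 3 genes failed the filter on low counts, which left 30 members for testing among 14785 genes.

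**Figure D1:**
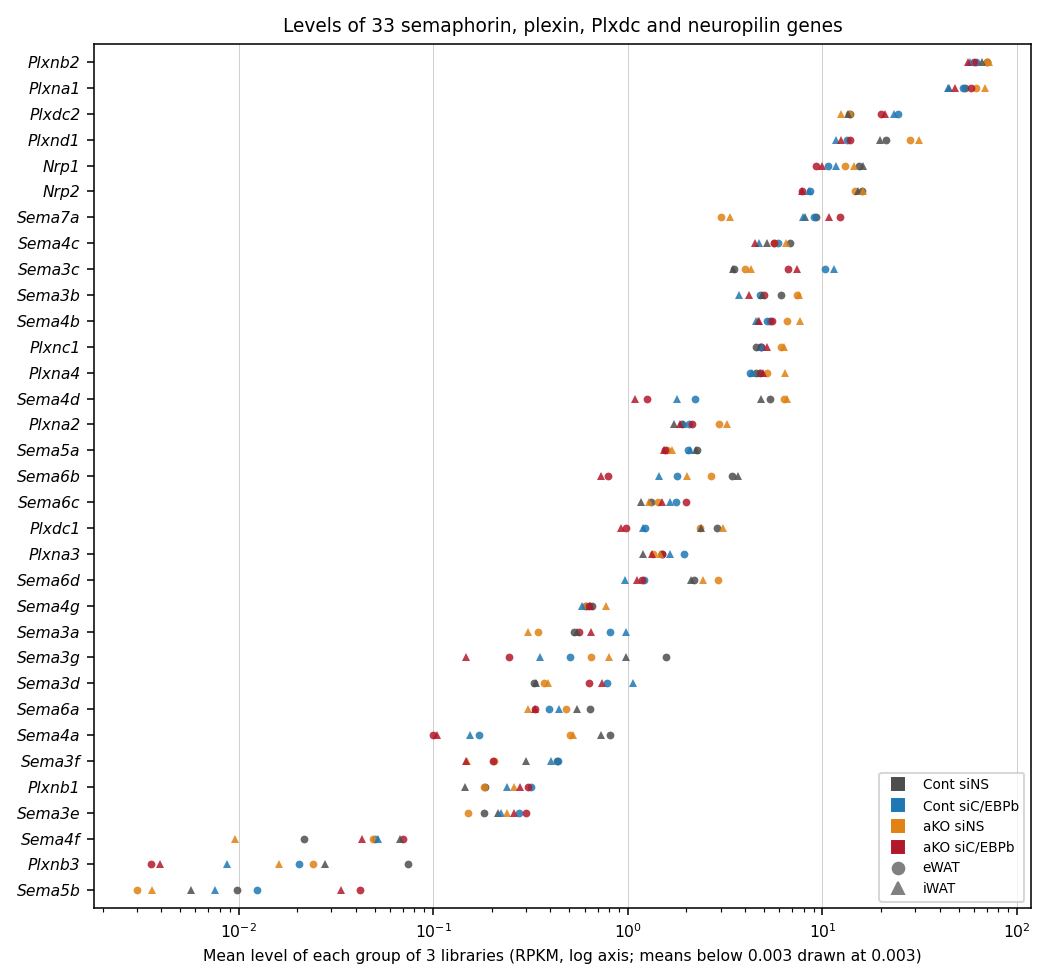
Levels of the 33 genes, ordered by their median over 24 libraries. The x axis gives the mean RPKM of each group of 3 libraries on a log scale, with colours for genotype and siRNA and symbols for the depot. Plxnb2 and Plxna1 lie highest, with group means from 43.9 to 71.3 RPKM, and Sema4f, Plxnb3 and Sema5b lie lowest.

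The make-up of the ligands moved more than their total. The summed level of the 20 semaphorins in eWAT Cont was 50.7 ± 3.43 RPKM with siNS (mean ± SD over n = 3 libraries) and 48.4 ± 1.26 with siC/EBPb. Within this sum, class 3 held 25.0% ± 0.667 with siNS and 37.1% ± 1.61 with siC/EBPb, and Sema3c alone went from 6.90% ± 0.249 to 21.4% ± 2.00. Class 4 held 37.5% ± 1.22 and 29.3% ± 1.80. In iWAT Cont the class 3 share was 24% ± 0.205 with siNS and 40.9% ± 0.630 with siC/EBPb. In aKO it was 29.2% ± 2.01 and 30.2% ± 3.88 in eWAT, and 29.5% ± 2.34 and 33.3% ± 3.16 in iWAT, so the 2 siRNA groups of aKO were closer than those of Cont. Sema7a held 18.1% ± 2.54 of the sum in eWAT Cont siNS, 6.72% ± 0.291 in eWAT aKO siNS and 27.4% ± 2.65 in eWAT aKO siC/EBPb. The 2 neuropilins together had 31.3 ± 2.82 RPKM in eWAT Cont siNS and 19.3 ± 0.198 with siC/EBPb, and 31.4 ± 3.29 and 20.4 ± 1.07 in iWAT. These shares are descriptions, and no test was run on them.

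Changes were tested in all 24 libraries with edgeR's quasi-likelihood test, with 1 mean per group and p-values adjusted by Benjamini and Hochberg over all 14785 tested genes. Rises and falls below passed an adjusted p of 0.05, and log2 fold changes are given ± SE with n = 3 libraries per group. Knockdown in Cont raised 7 and lowered 11 of the 30 tested members in eWAT, where 26.8% of all tested genes changed (11.8% higher, 14.9% lower). In iWAT Cont it raised 6 and lowered 11, where 24.3% of all changed (10.3% higher, 14.0% lower). Their median change without regard to sign was 0.56 in eWAT and 0.45 in iWAT on the log2 scale, beside 0.18 and 0.19 for all tested genes. In aKO cultures the knockdown raised 8 and lowered 15 members in eWAT, against a background of 35.7% (16.6% higher, 19.1% lower). In iWAT aKO it raised 5 and lowered 15, against 31.3% (13.6% higher, 17.7% lower). The 2 depots share no library, but in some groups same-numbered libraries of the depots deviated together, so the depots may not be independent. All 30 members had the same sign in both depots for the knockdown in Cont, beside 78.3% of all tested genes, and the 16 members called in both were 88.9% of the eWAT calls and 94.1% of the iWAT calls.

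Genotype moved fewer members. With siNS, 5 of 30 were higher and 7 lower in aKO than in Cont in eWAT, where 20.4% of all tested genes were called (9.50% higher, 10.9% lower). In iWAT 7 were higher and 7 lower, where 15.2% of all were called (7.32% higher, 7.85% lower). Of the 30 members, 26 had the same sign in both depots, beside 74.6% of all tested genes, and 10 were called in both, which were 83.3% of the eWAT calls and 71.4% of the iWAT calls. Under siC/EBPb, 1 member was higher and 8 were lower in eWAT aKO, against a background of 10.8% (3.90% higher, 6.87% lower), and 1 was higher and 7 were lower in iWAT aKO, against 10.0% (3.52% higher, 6.51% lower). The response to knockdown differed between genotypes for 4 members in eWAT, 1 with a higher and 3 with a lower effect in aKO, where 6.34% of all tested genes did (3.01% higher, 3.33% lower). In iWAT it differed for 1 with a higher and 2 with a lower effect, where 3.51% did (1.32% higher, 2.19% lower). The count in iWAT with siNS rested on single libraries, since leaving out Cont siNS replicate 1 of that depot gave 9 called members, and leaving out its aKO siNS replicate 3 gave 8. When that comparison was fitted on its own libraries alone, Sema7a, Sema3a, Sema6b and Plxna2 were called, and Sema5a, Sema3c, Plxnc1, Plxnd1, Sema4a, Sema6a, Sema6d, Sema3g, Sema4b and Plxna1 were lost (adjusted p from 0.0572 to 0.257). The same fit lost Sema3b, Plxnc1, Plxnb2, Sema4b, Sema3d and Plxna1 for the knockdown in iWAT aKO (adjusted p from 0.0612 to 0.224). In iWAT under siC/EBPb, 5 were called without Cont replicate 3 and 5 without aKO replicate 1. Shares of all tested genes in these smaller fits are not given here, so these counts have no background beside them. Sema4c, Sema4g and Plxna4 were not called in any comparison by edgeR's quasi-likelihood test, although Sema4c and Plxna4 passed under some alternatives given with them.

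**Figure D2:**
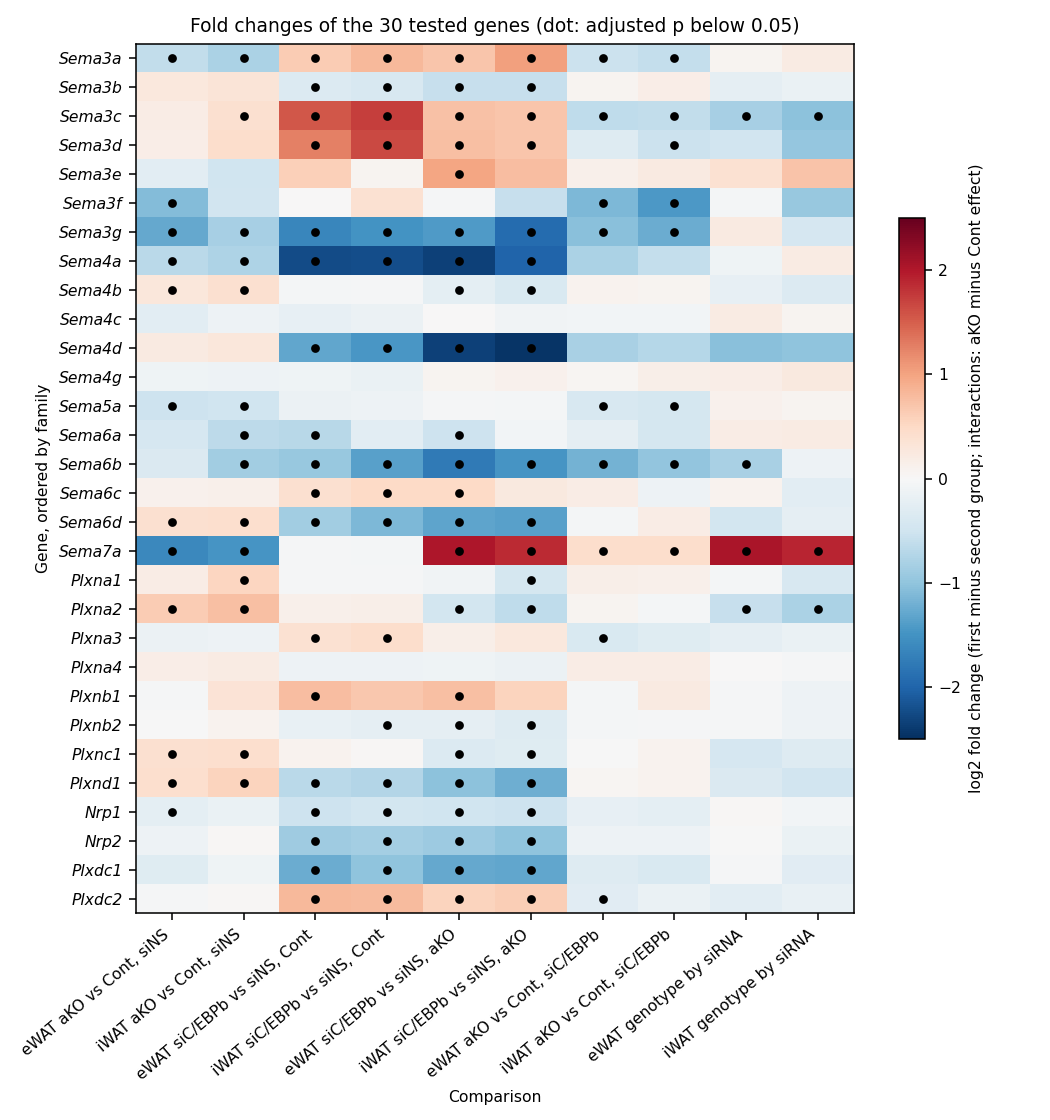
Fold changes of the 30 tested genes, in rows by family, over 10 comparisons in columns. The colour gives the log2 fold change of the first against the second group, for interactions the aKO minus the Cont knockdown effect, and a dot marks an adjusted p below 0.05. Sema4a and Sema4d fall and Sema3c and Sema3d rise in all 4 knockdown comparisons, while Sema7a has dots for the knockdown in aKO and none for the knockdown in Cont.

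Sema7a (ENSMUSG00000038264, GRCm38 chromosome 9, 57940112 to 57962865), a ligand of Plxnc1 and of integrins, was the member whose response to knockdown differed most between genotypes. In eWAT its level was 31.5, 35.8 and 23.8 CPM in Cont siNS and 30.2, 29.6 and 29.8 in Cont siC/EBPb. In aKO it was 9.93, 9.61 and 10.2 CPM with siNS and 42.4, 42.8 and 36.4 with siC/EBPb. The aKO siNS libraries lay below and the aKO siC/EBPb libraries above all Cont libraries of that depot. In iWAT the libraries gave 29.7, 27.7 and 22.6 CPM in Cont siNS, 22.6, 30.8 and 24.7 in Cont siC/EBPb, 9.72, 13.8 and 9.43 in aKO siNS, and 39.2, 32.7 and 34.5 in aKO siC/EBPb. The same order was seen there, although the 13.8 CPM of the shallow library rested on 7 counts.

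With siNS, Sema7a fell in aKO by 1.61 ± 0.14 in eWAT (adjusted p = 2.21e-09) and by 1.47 ± 0.16 in iWAT (adjusted p = 4.57e-07). Knockdown in Cont gave -0.03 ± 0.12, with a 95% interval from -0.26 to 0.20, in eWAT, and -0.04 ± 0.13, with an interval from -0.29 to 0.21, in iWAT. In aKO it rose with knockdown by 2.03 ± 0.13 in eWAT, a 4.08-fold change, and by 1.87 ± 0.16 in iWAT, 3.66-fold. The interaction was 2.05 ± 0.18 in eWAT (adjusted p = 1e-07) and 1.91 ± 0.20 in iWAT (adjusted p = 3.38e-06). Under siC/EBPb, aKO exceeded Cont by 0.44 ± 0.11 in eWAT and 0.44 ± 0.12 in iWAT. This smaller difference was lost in eWAT without aKO siC/EBPb replicate 1 (adjusted p = 0.0549), and in iWAT without Cont siC/EBPb replicate 1 (0.128) or 3 (0.0973) or aKO siC/EBPb replicate 1 (0.125). Plxnc1 (ENSMUSG00000074785), the plexin that binds Sema7a, had group means of 4.58 to 6.34 RPKM. It rose in aKO with siNS by 0.41 ± 0.11 in eWAT and 0.42 ± 0.12 in iWAT, while Sema7a fell.

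**Figure D3:**
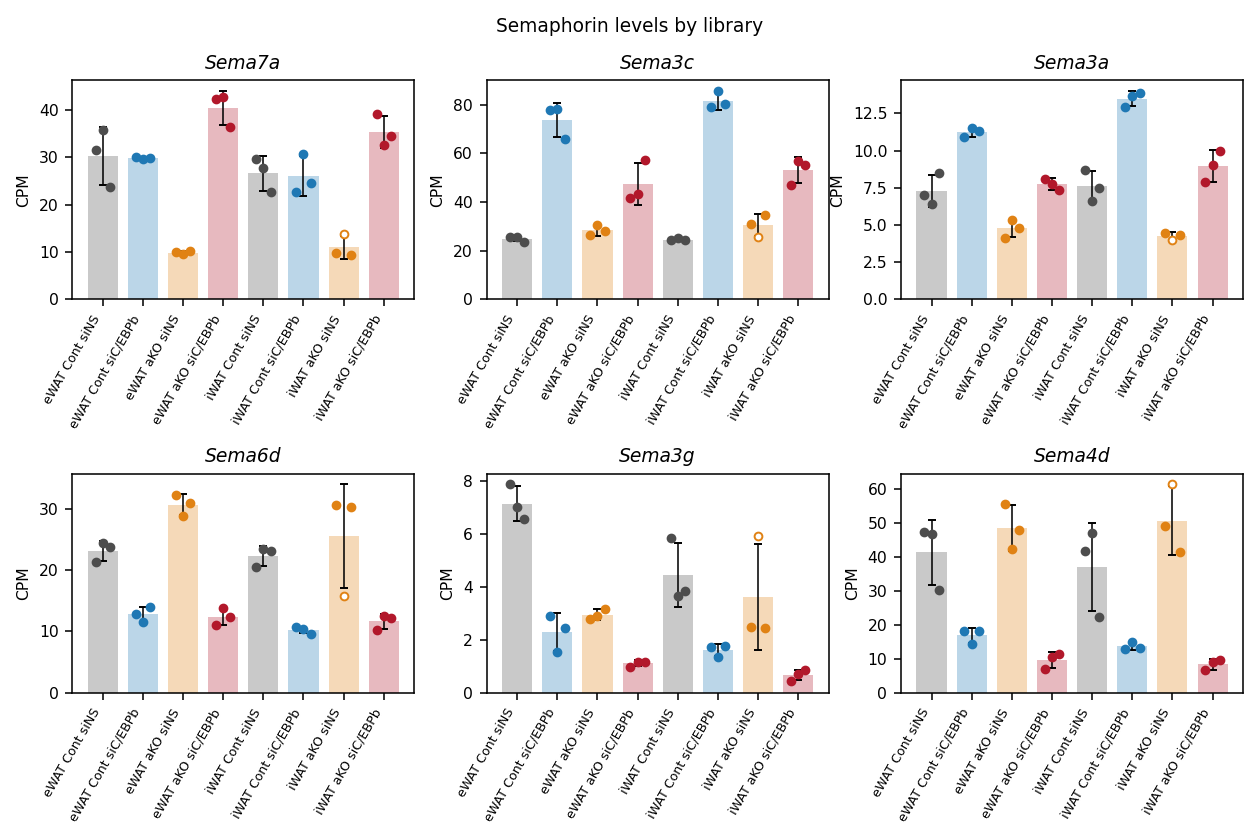
CPM of 6 semaphorins in each library. Bars give the mean of 3 libraries, error bars the SD and points the libraries, with the shallow library as an open point. Sema7a is lowest in the 2 aKO siNS groups, at 9.43 to 13.8 CPM, and highest in the aKO siC/EBPb groups, at 32.7 to 42.8 CPM.

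Among the secreted class 3 ligands, Sema3c, Sema3d and Sema3a rose with knockdown while Sema3g and Sema3b fell. Sema3c (ENSMUSG00000028780, chromosome 5, 17574281 to 17730268), known for guiding vessel and nerve growth through neuropilins and Plxnd1, had 25.5, 25.7 and 23.7 CPM in eWAT Cont siNS and 77.7, 78.2 and 65.8 with siC/EBPb. In eWAT aKO it had 26.3, 30.7 and 28.2 with siNS and 41.6, 43.4 and 57.3 with siC/EBPb. The siC/EBPb libraries of each genotype stood above all siNS libraries. In iWAT, Cont had 24.3, 25.1 and 24.4 CPM with siNS and 79.0, 85.8 and 80.2 with siC/EBPb, and aKO had 31.0, 25.7 and 34.8, then 46.9, 57.0 and 55.3. The rise was 1.56 ± 0.10 in eWAT Cont (adjusted p = 3.65e-12) and 1.73 ± 0.11 in iWAT Cont (adjusted p = 1.45e-12), and 0.74 ± 0.10 and 0.70 ± 0.11 in aKO. It was smaller in aKO than in Cont, with interactions of -0.83 ± 0.14 (adjusted p = 0.000579) and -1.03 ± 0.15 (adjusted p = 0.000194). Under siC/EBPb, Sema3c was lower in aKO by 0.64 ± 0.094 in eWAT and 0.62 ± 0.095 in iWAT. With siNS, it was 0.41 ± 0.12 higher in iWAT aKO, a call that was lost without iWAT Cont siNS replicate 1 (adjusted p = 0.0781) or 3 (0.0589) or aKO siNS replicate 3 (0.234).

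Sema3d (ENSMUSG00000040254, chromosome 5, 12383385 to 12588948), a class 3 ligand known in vessel and heart development, was a low gene with the same direction. Its libraries ranged from 2.44 to 3.06 CPM in eWAT Cont siNS and from 6.48 to 7.21 with siC/EBPb, and from 2.67 to 3.13 and 8.94 to 9.51 in iWAT. It rose with knockdown by 1.25 ± 0.19 and 1.65 ± 0.20 in Cont and by 0.76 ± 0.19 and 0.70 ± 0.21 in aKO, in eWAT and iWAT. The iWAT aKO rise was lost without aKO siNS replicate 3 (0.43, adjusted p = 0.24) or siC/EBPb replicate 2 (adjusted p = 0.0871), and was 1.05 without aKO siNS replicate 1. The interactions of -0.48 ± 0.27 and -0.96 ± 0.30 did not pass (adjusted p = 0.334 and 0.0742), although the iWAT one did with no filter (0.0334) and without aKO siNS replicate 2 (0.041) or 3 (0.0468) or aKO siC/EBPb replicate 2 (0.0335). Under siC/EBPb, Sema3d was lower in iWAT aKO by 0.53 ± 0.17, a call lost without Cont siC/EBPb replicate 1 (0.0776), 2 (0.131) or 3 (0.0929) or aKO siC/EBPb replicate 1 (0.3) or 3 (0.0612).

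Sema3a (ENSMUSG00000028883, chromosome 5, 13125414 to 13602565), the classical repellent of sensory and sympathetic axons that signals through Nrp1, moved in opposite directions with the 2 manipulations. In eWAT it had 7.05, 6.38 and 8.47 CPM in Cont siNS, 10.9, 11.5 and 11.3 in Cont siC/EBPb, 4.16, 5.35 and 4.79 in aKO siNS, and 8.12, 7.76 and 7.33 in aKO siC/EBPb. In iWAT the levels were 8.72, 6.63 and 7.46, then 12.9, 13.7 and 13.9, then 4.47, 3.96 and 4.33, and last 7.88, 9.02 and 10.0, in the same order of groups. The groups with one manipulation did not overlap with Cont siNS, on either side, whereas those with both did in each depot. Sema3a fell in aKO with siNS by 0.61 ± 0.13 (adjusted p = 0.00136) in eWAT and by 0.80 ± 0.16 (adjusted p = 0.000835) in iWAT. With knockdown it rose by 0.63 ± 0.12 and 0.82 ± 0.12 in Cont and by 0.69 ± 0.13 and 1.03 ± 0.15 in aKO. Under siC/EBPb it was lower in aKO by 0.54 ± 0.12 and 0.59 ± 0.11. The interactions were 0.07 ± 0.18 and 0.21 ± 0.20 and did not pass.

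Sema3g (ENSMUSG00000021904, chromosome 14, 31217860 to 31230352), a neuropilin-binding class 3 ligand, fell with both. In eWAT it had 7.87, 6.99 and 6.55 CPM in Cont siNS, 2.91, 1.52 and 2.46 in Cont siC/EBPb, 2.77, 2.91 and 3.17 in aKO siNS, and 0.983, 1.18 and 1.18 in aKO siC/EBPb. The highest eWAT library with either manipulation was below the lowest Cont siNS library. The eWAT fall was 1.63 ± 0.19 with knockdown in Cont and 1.27 ± 0.18 with aKO (adjusted p = 1.54e-07 and 9.82e-06). In iWAT the knockdown change in Cont was -1.50 ± 0.24 and the aKO change -0.83 ± 0.24. There the aKO siNS libraries, at 2.5, 5.93 and 2.43 CPM, overlapped with Cont siNS, at 5.84, 3.66 and 3.85, through the shallow library, whose value rested on 3 counts. The iWAT aKO call was lost without iWAT Cont siNS replicate 1 (adjusted p = 0.178), aKO siNS replicate 1 (0.0932) or aKO siNS replicate 3 (0.131).

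Under siC/EBPb, Sema3g was lower in aKO by 1.04 ± 0.26 in eWAT and by 1.25 ± 0.34 in iWAT. These calls were lost without eWAT Cont siC/EBPb replicate 1 (adjusted p = 0.0813) or aKO siC/EBPb replicate 1 (0.0504), and without iWAT Cont siC/EBPb replicate 3 (0.0696) or aKO siC/EBPb replicate 1 (0.101). Sema3f, a ligand that prefers Nrp2, had only 0.689 to 2.78 CPM in 23 libraries and 0 counts in the shallow one. It fell in eWAT aKO by 1.08 ± 0.24 with siNS and by 1.12 ± 0.24 with siC/EBPb, and in iWAT aKO by 1.43 ± 0.28 with siC/EBPb (adjusted p = 0.00171, 0.00198 and 0.000743). In iWAT with siNS its change of -0.48 ± 0.31 did not pass. Sema3e, which binds Plxnd1 without a neuropilin, had 1.00 to 3.96 CPM, the highest from 2 counts in the shallow library. It rose in eWAT aKO with knockdown by 0.99 ± 0.30. That call was lost without aKO siNS replicate 1 (adjusted p = 0.0583) or aKO siC/EBPb replicate 1 (0.66, adjusted p = 0.134).

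Sema3b, a class 3 ligand known as a tumour suppressor gene, had 16.7 to 51.4 CPM over the 24 libraries. The 51.4 CPM was that of the shallow library, with 26 counts, and the highest other value was 37.3. Sema3b fell with knockdown in aKO by 0.57 ± 0.12 in eWAT and 0.57 ± 0.14 in iWAT, and in Cont by 0.35 ± 0.12 and 0.40 ± 0.14. The iWAT aKO call was lost without aKO siNS replicate 3 (adjusted p = 0.0619). The eWAT Cont call was lost without siNS replicate 1 (0.0568) or 2 (0.145) or siC/EBPb replicate 2 (0.14) or 3 (0.0766). The iWAT Cont call was lost without siNS replicate 1 (0.117) or 2 (0.189) or siC/EBPb replicate 1 (0.0906) or 3 (0.107), and the DESeq2 Wald test called neither Cont change (adjusted p = 0.104 and 0.0913).

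The class 4 semaphorins, which span the membrane, split into Sema4a and Sema4d with large falls and Sema4b, Sema4c and Sema4g with small or no changes. Sema4d (ENSMUSG00000021451, chromosome 13, 51685529 to 51793747), known as CD100 on leukocytes and a ligand of Plxnb1 and Cd72, had 47.1, 46.6 and 30.3 CPM in eWAT Cont siNS and 18.1, 14.4 and 18.2 with siC/EBPb. In eWAT aKO it had 55.5, 42.1 and 47.9, then 6.88, 10.5 and 11.5. Each siC/EBPb group was below its siNS group without overlap. In iWAT, Cont had 41.6, 47.0 and 22.4 CPM with siNS and 12.9, 14.9 and 13.3 with siC/EBPb, and aKO had 49.0, 61.3 and 41.3, then 6.58, 9.09 and 9.51. Sema4d fell with knockdown by 1.30 ± 0.22 and 1.45 ± 0.25 in Cont (adjusted p = 0.000197 and 0.000189) and by 2.34 ± 0.24 and 2.45 ± 0.27 in aKO (adjusted p = 2.8e-07 and 8.9e-07). The interactions of -1.04 ± 0.34 (adjusted p = 0.0728) and -1.01 ± 0.38 (adjusted p = 0.163) did not pass with edgeR's quasi-likelihood test. At about the same size both passed with the DESeq2 Wald test (adjusted p = 0.0352 and 0.0417) and with no filter (1.2e-09 and 5.43e-07), and the eWAT one with limma voom (-0.93, adjusted p = 0.0232). With no filter the SEs of the interactions were 0.15 and 0.17, so those p-values rest on a smaller estimate of the spread. Under siC/EBPb the genotype difference was -0.82 ± 0.27 in eWAT (adjusted p = 0.0588) and -0.71 ± 0.29 in iWAT (adjusted p = 0.16), with no overlap of aKO and Cont libraries. It passed in eWAT with no filter (6.49e-10), the stricter filter (0.0496), DESeq2 (0.0107), limma voom (0.013) and on its own groups (0.0067). In iWAT it passed with no filter (9.3e-06), DESeq2 (0.0433) and on its own groups (0.00142). The SEs of this difference with no filter were again smaller, at 0.12 in eWAT and 0.13 in iWAT. With siNS the genotype differences of 0.23 ± 0.20 and 0.29 ± 0.23 did not pass, although the iWAT one did with no filter (0.31, adjusted p = 0.0393).

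Sema4a (ENSMUSG00000028064, chromosome 3, 88435959 to 88461182), known on dendritic cells and as a plexin ligand, was low, with 606 counts in all. In eWAT Cont it had 3.90, 4.82 and 4.41 CPM with siNS and 0.595, 1.12 and 1.07 with siC/EBPb. In iWAT Cont it had 4.44, 4.06 and 3.25, then 0.666, 0.891 and 0.964. It fell with knockdown by 2.23 ± 0.22 and 2.21 ± 0.25 in Cont, with folds of 4.68 and 4.63, and by 2.34 ± 0.27 and 2.01 ± 0.31 in aKO. With siNS it was lower in aKO by 0.68 ± 0.18 in eWAT and by 0.78 ± 0.23 in iWAT. The eWAT call was lost without aKO siNS replicate 3 (adjusted p = 0.0527), and the iWAT call without Cont siNS replicate 1 (0.0844) or aKO siNS replicate 1 (0.11) or 3 (0.0823).

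Leukocyte markers fell beside Sema4a and Sema4d. The summed level of 14 leukocyte markers was 1910 to 2670 CPM in eWAT Cont siNS and 361 to 422 with siC/EBPb, and 1840 to 2560 and 348 to 378 in iWAT Cont. In aKO it was 1550 to 1630 and 91.8 to 195 in eWAT, and 823 to 1560 and 76.5 to 175 in iWAT. All 12 tested leukocyte markers fell with knockdown in each of these 4 comparisons, with median log2 fold changes of -1.93, -2.07, -2.88 and -2.75 in the order eWAT Cont, iWAT Cont, eWAT aKO and iWAT aKO. Of all tested genes, 26.8%, 24.3%, 35.7% and 31.3% were called in these comparisons, in the same order. With siNS, 7 of the 12 fell in eWAT aKO and 5 in iWAT aKO, or 58.3% and 41.7% beside 20.4% and 15.2% of all tested genes. The part of these markers in the semaphorin changes was not tested.

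Sema4b, a transmembrane class 4 ligand, rose in aKO with siNS by 0.29 ± 0.10 in eWAT and 0.41 ± 0.12 in iWAT, and fell with knockdown in aKO by 0.25 ± 0.099 and 0.38 ± 0.11. None of these 4 calls held without every single library. With siNS, the eWAT call was lost without Cont replicate 1 (adjusted p = 0.123) or 2 (0.112) or aKO replicate 1 (0.138) or 2 (0.0922), and the iWAT call without Cont replicate 1 (0.0985) or aKO replicate 1 (0.0871). For the knockdown, the eWAT aKO call was lost without siNS replicate 1 (0.154) or 2 (0.0982) or siC/EBPb replicate 1 (0.183) or 3 (0.127), and the iWAT aKO call without siNS replicate 1 (0.0617) or siC/EBPb replicate 3 (0.0564). Sema4c and Sema4g stayed within 0.37 and 0.25 of 0 on the log2 scale in every comparison. The Sema4c change of -0.27 ± 0.10 in eWAT aKO with siNS (adjusted p = 0.0684) passed with no filter (0.0493), limma voom (0.00867), on its own groups (0.0209), without Cont siNS replicate 1 (0.0485) and without the shallow library (0.0176). Its knockdown change in eWAT Cont passed with limma voom (-0.18, adjusted p = 0.043) and on its own groups (-0.21, adjusted p = 0.0467). Exons of Sema4c overlap with those of an antisense gene over 7.27% of their length, and whether counting used strand is not stated in the labels or notes.

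Of the 2 class 5 genes, Sema5a (ENSMUSG00000022231), a membrane protein with thrombospondin repeats, fell in aKO with either siRNA, and its knockdown changes did not pass the test. It had 38.3, 45.9 and 42.4 CPM in eWAT Cont siNS and 31.1, 30.7 and 27.0 in eWAT aKO siNS, and 42.4, 47.3 and 36.3 against 29.5, 35.6 and 29.5 in iWAT. The aKO libraries lay below the Cont libraries in both depots. The fall was 0.51 ± 0.088 in eWAT (adjusted p = 9.27e-05) and 0.50 ± 0.10 in iWAT (adjusted p = 0.00088) with siNS, and 0.40 ± 0.088 and 0.44 ± 0.091 under siC/EBPb. The iWAT call with siNS was lost when fitted on its own groups (-0.50, adjusted p = 0.0572). The 4 knockdown changes lay between -0.14 and -0.03 and did not pass. Sema5b was not tested.

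Class 6 semaphorins are transmembrane ligands of class A plexins. Sema6d (ENSMUSG00000027200, chromosome 2, 124089969 to 124667770), a ligand of Plxna1, had 21.3, 24.4 and 23.8 CPM in eWAT Cont siNS, 12.8, 11.5 and 14 in Cont siC/EBPb, 32.3, 28.8 and 31.0 in aKO siNS, and 11.1, 13.9 and 12.3 in aKO siC/EBPb. The aKO siNS libraries were the highest of the depot, and the siC/EBPb libraries of the 2 genotypes overlapped. Knockdown changed it by -0.86 ± 0.10 and -1.12 ± 0.12 in Cont and by -1.31 ± 0.10 and -1.35 ± 0.11 in aKO, and all 4 passed (adjusted p from 6.19e-11 to 2.54e-07). With siNS, aKO exceeded Cont by 0.41 ± 0.094 in eWAT (adjusted p = 0.0022) and 0.42 ± 0.11 in iWAT. In iWAT the aKO siNS libraries had 30.6, 15.8 and 30.3 CPM against 20.5, 23.4 and 23.1 in Cont, so that the shallow library, with 8 counts, lay below them. The iWAT call was lost without iWAT Cont siNS replicate 1 (adjusted p = 0.07), aKO siNS replicate 1 (0.0785) or aKO siNS replicate 3 (0.0837). Under siC/EBPb the genotype difference was -0.04 (95% interval -0.26 to 0.18) in eWAT and 0.19 (-0.05 to 0.43) in iWAT.

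Sema6b (ENSMUSG00000001227, chromosome 17, 56123085 to 56140343), a transmembrane ligand of class A plexins, fell with knockdown in each depot and genotype. Its eWAT levels were 12.7, 14.8 and 13.5 CPM in Cont siNS, 7.80, 7.08 and 6.26 in Cont siC/EBPb, 13.1, 10.0 and 8.81 in aKO siNS, and 2.49, 4.58 and 2.35 in aKO siC/EBPb. The last group was below all others of its depot. The knockdown fall was 0.95 ± 0.15 in eWAT Cont, 1.35 ± 0.16 in iWAT Cont, 1.76 ± 0.18 in eWAT aKO and 1.48 ± 0.21 in iWAT aKO. In iWAT it was lower in aKO by 0.86 ± 0.17 with siNS, and under siC/EBPb it was lower in aKO by 1.18 ± 0.19 in eWAT and 0.99 ± 0.21 in iWAT. The eWAT difference with siNS, -0.37 ± 0.14, did not pass (adjusted p = 0.062), but did with no filter (0.0355), limma voom (0.00259), a replicate block (0.0426), on its own groups (0.0439), without aKO siNS replicate 1 (0.0112) and without the shallow library (0.0455). The eWAT interaction of -0.81 ± 0.23 passed (adjusted p = 0.0361). It was lost without Cont siNS replicate 1 (0.073) or 3 (0.0642), Cont siC/EBPb replicate 1 (0.104) or 2 (0.0627), aKO siNS replicate 1 (0.0971), or aKO siC/EBPb replicate 1 (0.158) or 3 (0.111). In iWAT the interaction was -0.13 ± 0.27, with a 95% interval from -0.65 to 0.40.

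Sema6c and Sema6a changed less. Sema6c rose with knockdown by 0.41 ± 0.13 in eWAT Cont, 0.50 ± 0.14 in iWAT Cont and 0.49 ± 0.12 in eWAT aKO. The eWAT Cont call was lost without siNS replicate 3 (adjusted p = 0.115) or siC/EBPb replicate 1 (0.0914) or 3 (0.0526), and the iWAT Cont call without siNS replicate 1 (0.104). Sema6a, a ligand of Plxna2 and Plxna4, fell with knockdown by 0.70 ± 0.16 in eWAT Cont and by 0.51 ± 0.18 in eWAT aKO, and was lower in iWAT aKO with siNS by 0.65 ± 0.21. The eWAT aKO call was lost without siNS replicate 1 (0.0605) or 3 (0.0765) or siC/EBPb replicate 2 (0.0885) or 3 (0.066). The iWAT call was lost without Cont siNS replicate 2 (0.123) or 3 (0.084) or aKO siNS replicate 1 (0.124) or 3 (0.117).

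Among the plexins, Plxna2, Plxnd1 and Plxnc1 were higher in aKO with siNS in both depots, and this difference was small under siC/EBPb. Plxna2 (ENSMUSG00000026640, chromosome 1, 194618218 to 194816869), a receptor of class 6 and, with neuropilins, class 3 semaphorins, had 30.9, 32.3 and 34.6 CPM in eWAT Cont siNS and 35.8, 32.8 and 37.3 in Cont siC/EBPb. In eWAT aKO it had 53.2, 47.9 and 50.5 with siNS and 36.2, 34.0 and 39.9 with siC/EBPb. The 3 aKO siNS libraries stood above the other 9 of their depot. In iWAT the libraries gave 29.8, 28.9 and 29.8 CPM in Cont siNS, 33.9, 32.5 and 31.9 in Cont siC/EBPb, 45.7, 69.2 and 51.0 in aKO siNS, and 31.3, 30.4 and 33.6 in aKO siC/EBPb, with the same order. Plxna2 rose in aKO with siNS by 0.63 ± 0.078 (adjusted p = 8.18e-07) in eWAT and 0.75 ± 0.09 (adjusted p = 9.45e-07) in iWAT. Knockdown lowered it in aKO by 0.46 ± 0.077 and 0.64 ± 0.087, and gave 0.12 (95% interval -0.04 to 0.27) and 0.15 (-0.02 to 0.32) in Cont. The interactions of -0.58 ± 0.11 (adjusted p = 0.00168) and -0.79 ± 0.12 (adjusted p = 0.000243) passed. Under siC/EBPb the genotype difference was 0.06 (-0.10 to 0.21) in eWAT and -0.05 (-0.21 to 0.12) in iWAT.

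Plxnd1 (ENSMUSG00000030123, chromosome 6, 115954811 to 115995005), the receptor of Sema3e and, with neuropilins, of Sema3c, had 157, 157 and 148 CPM in eWAT Cont siNS, 98.8, 90.2 and 101 in Cont siC/EBPb, 221, 183 and 214 in aKO siNS, and 86.8, 111 and 104 in aKO siC/EBPb. In iWAT the levels were 154, 149 and 128, then 82.9, 89.1 and 86.3, then 203, 287 and 196, and last 84.3, 94.7 and 95.2. In both depots aKO siNS was the highest group and the 2 siC/EBPb groups overlapped. Plxnd1 fell with knockdown by 0.67 ± 0.10 and 0.74 ± 0.10 in Cont and by 1.03 ± 0.10 and 1.22 ± 0.11 in aKO, and rose in aKO with siNS by 0.42 ± 0.098 and 0.56 ± 0.11. The iWAT rise was lost when fitted on its own groups (0.64, adjusted p = 0.091). The interactions of -0.36 ± 0.14 and -0.48 ± 0.15 did not pass (adjusted p = 0.126 and 0.0683), although the eWAT one did with limma voom (0.0484) and without the shallow library (0.034), and the iWAT one with no filter (0.0304) and limma voom (0.0461). Its ligand Sema3c rose with knockdown, as above, while Plxnd1 fell.

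**Figure D4:**
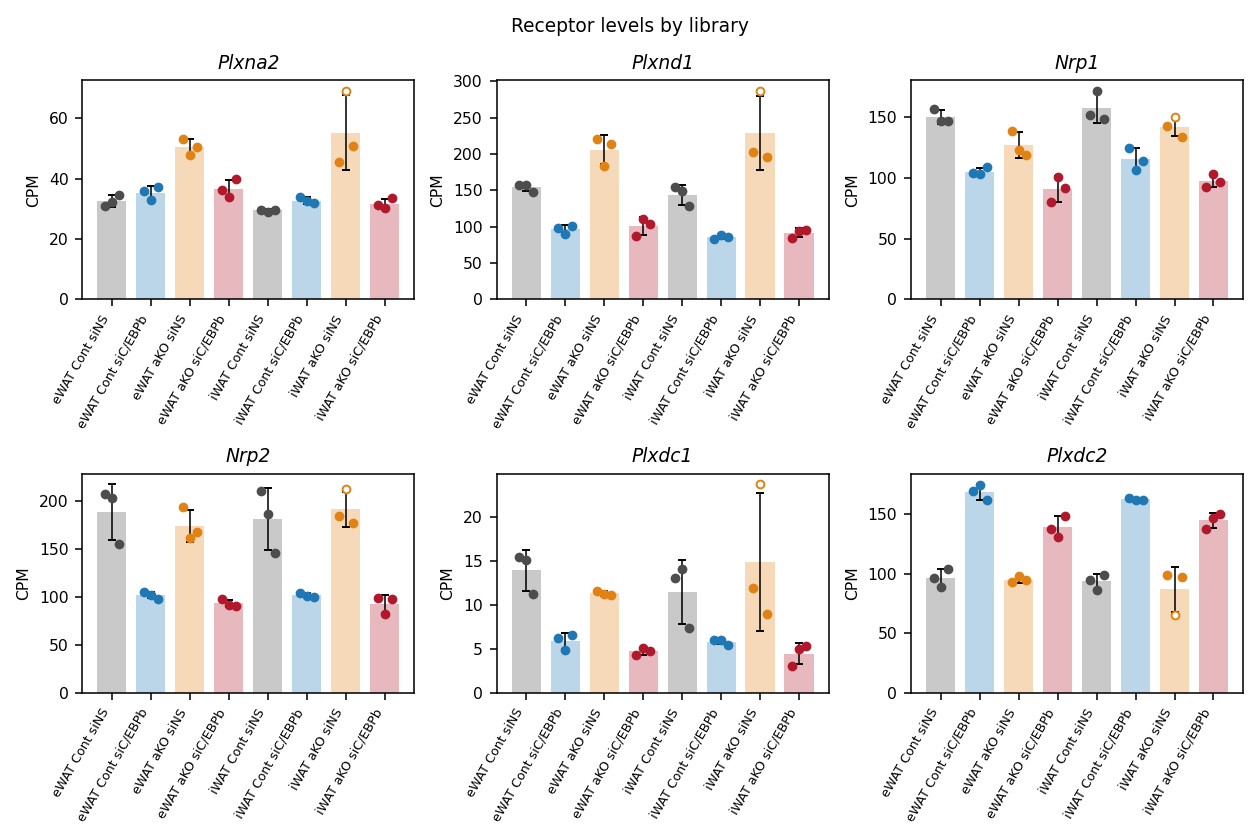
CPM of 6 receptor genes in each library. Bars give the mean of 3 libraries, error bars the SD and points the libraries, with the shallow library as an open point. Nrp2 lies between 146 and 212 CPM with siNS and between 81.8 and 105 CPM with siC/EBPb, and Plxdc2 lies higher with siC/EBPb in each depot and genotype.

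The abundant Plxnb2 and Plxna1 moved little. Plxnb2 had 428 to 589 CPM over all libraries and fell with knockdown by 0.22 ± 0.076 in iWAT Cont, 0.22 ± 0.075 in eWAT aKO and 0.33 ± 0.078 in iWAT aKO. The iWAT Cont call was lost without siNS replicate 1 (adjusted p = 0.13) or 3 (0.111) or siC/EBPb replicate 1 (0.0689), 2 (0.107) or 3 (0.0648), and the eWAT aKO call without siNS replicate 1 (0.108) or siC/EBPb replicate 1 (0.0775). With no filter on low counts none of the 3 passed (adjusted p from 0.07 to 0.307). The eWAT Cont change of Plxnb2, -0.19, did not pass with edgeR's quasi-likelihood test. It did with DESeq2 size factors (adjusted p = 0.0482), the stricter filter (0.0383), the DESeq2 Wald test (0.00452), limma voom (0.0154) and on its own groups (0.00826). Plxna1 rose in iWAT aKO with siNS by 0.53 ± 0.13, where the shallow library had 878 CPM and the other 2 had 494 and 478. Without that library the rise was 0.25 ± 0.063 (adjusted p = 0.00368), and the fall with knockdown in iWAT aKO went from 0.44 ± 0.13 to 0.17 (adjusted p = 0.0302). Exons of an antisense gene overlap with 10.71% of the exon length of Plxna1.

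Among the lower plexins, Plxna3, which serves Sema3f with Nrp2, rose with knockdown in Cont by 0.38 ± 0.11 in eWAT and 0.44 ± 0.13 in iWAT. These calls were lost without eWAT Cont siNS replicate 2 (adjusted p = 0.0781) or siC/EBPb replicate 1 (0.056), and without iWAT Cont siC/EBPb replicate 2 (0.0582). Under siC/EBPb it was lower in eWAT aKO by 0.38 ± 0.11, a call lost without Cont siC/EBPb replicate 1 (0.109) or 2 (0.0598) or aKO siC/EBPb replicate 1 (0.0632) or 3 (0.0923). Plxnb1, the main receptor of Sema4d, had only 0.842 to 3.96 CPM, the highest from 2 counts in the shallow library. It rose with knockdown by 0.78 ± 0.22 in eWAT Cont and 0.75 ± 0.22 in eWAT aKO, the latter lost without aKO siNS replicate 2 (0.0806), while the iWAT values of 0.68 ± 0.27 and 0.55 ± 0.26 did not pass, although the Cont one did with limma voom (0.0388).

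Plxnc1, given above with Sema7a, also fell with knockdown in aKO by 0.34 ± 0.11 in eWAT and 0.31 ± 0.12 in iWAT. The eWAT call was lost without aKO siNS replicate 1 (adjusted p = 0.0571) or siC/EBPb replicate 1 (0.0513) or 2 (0.0588). The iWAT call was lost without aKO siNS replicate 1 (0.0866) or 3 (0.217) or siC/EBPb replicate 1 (0.188) or 2 (0.127), and with a replicate block (0.0612). Its iWAT rise in aKO with siNS was lost without Cont siNS replicate 3 (0.0913) or aKO siNS replicate 3 (0.133). Under siC/EBPb its group means were 40.3 CPM in aKO and 40.5 in Cont in eWAT, and 43.3 and 40.7 in iWAT. The eWAT interaction of -0.42 did not pass, but did with no filter (-0.41, adjusted p = 0.0401). Plxna4 lay between 54.2 and 85.8 CPM in 23 libraries and at 127 in the shallow one. Its change in eWAT aKO with siNS passed with limma voom alone (0.25, adjusted p = 0.0494).

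Both neuropilins fell with knockdown in each depot and genotype. Nrp2 (ENSMUSG00000025969, chromosome 1, 62703285 to 62818695), the coreceptor of Sema3f and Sema3g and of Vegfc, had 207, 203 and 155 CPM in eWAT Cont siNS and 105, 102 and 98.1 with siC/EBPb, and 193, 161 and 167 and then 97.7, 91.3 and 90.0 in aKO. In iWAT, Cont had 210, 186 and 146, then 104, 101 and 100, and aKO had 184, 212 and 177, then 98.7, 81.8 and 97.2. No siC/EBPb library reached the lowest siNS library. Nrp2 fell by 0.89 ± 0.11 in eWAT Cont, 0.84 ± 0.11 in iWAT Cont, 0.90 ± 0.11 in eWAT aKO and 1.00 ± 0.12 in iWAT aKO (adjusted p from 2.01e-07 to 2.06e-06). With siNS the genotype differences were -0.12 ± 0.11 and 0.03 ± 0.12 and did not pass.

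Nrp1 (ENSMUSG00000025810, chromosome 8, 128358604 to 128503363), the coreceptor of Sema3a and Vegfa, had 157, 147 and 147 CPM in eWAT Cont siNS and 104, 103 and 109 with siC/EBPb. In iWAT Cont it had 152, 172 and 149, then 125, 107 and 114. The groups did not overlap. It fell by 0.52 ± 0.08 and 0.45 ± 0.081 in Cont, and by 0.49 ± 0.081 and 0.52 ± 0.087 in aKO. In eWAT aKO with siNS it was lower by 0.24 ± 0.08, a call that was lost without Cont siNS replicate 1 (adjusted p = 0.133), 2 (0.0562) or 3 (0.05) or aKO siNS replicate 2 (0.121) or 3 (0.162).

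The 2 Plxdc genes moved apart. Plxdc1 (ENSMUSG00000017417, chromosome 11, 97923238 to 97986444), first known as a tumour endothelial marker, had 15.4, 15.1 and 11.2 CPM in eWAT Cont siNS and 6.22, 4.90 and 6.59 with siC/EBPb. Plxdc2 (ENSMUSG00000026748, chromosome 2, 16356304 to 16755839) had 96.6, 89.1 and 104, then 170, 175 and 162. Neither pair of groups overlapped, and one gene fell where the other rose. With knockdown Plxdc1 fell by 1.24 ± 0.19 in eWAT Cont, 1.01 ± 0.21 in iWAT Cont, 1.27 ± 0.20 in eWAT aKO and 1.29 ± 0.24 in iWAT aKO. Plxdc2 rose by 0.81 ± 0.075, 0.80 ± 0.077, 0.55 ± 0.076 and 0.61 ± 0.083 in the same comparisons (adjusted p from 3.27e-09 to 1.25e-06). Under siC/EBPb, Plxdc2 was lower in eWAT aKO by 0.28 ± 0.074, a call that was lost without Cont siC/EBPb replicate 2 (adjusted p = 0.071) or aKO siC/EBPb replicate 2 (0.0704). The summed level of 12 endothelial markers was low in all libraries. In eWAT it was 21.5 to 25.6 CPM in Cont and 12.6 to 17.2 in aKO with siNS, and 20.9 to 24.4 and 10.1 to 16 with siC/EBPb. In iWAT it was 20.8 to 24.4 and 13.5 to 27.7 with siNS, and 23.5 to 26 and 10.3 to 12.9 with siC/EBPb. The genotypes overlapped in iWAT with siNS only, where the aKO group holds the shallow library. That group had 18.6 ± 7.92 CPM (mean ± SD, n = 3). Of 9 tested markers, 4 were lower in aKO in eWAT and 3 in iWAT with siNS, 4 and 7 were lower under siC/EBPb, and 0 were higher. These were 44.4% and 33.3% with siNS, beside 20.4% and 15.2% of all tested genes. Under siC/EBPb they were 44.4% and 77.8%, beside 10.8% and 10.0%. Without the shallow library, 4 were lower and 1 was higher in iWAT aKO with siNS, where 18.4% of all tested genes were called.

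**Figure D5:**
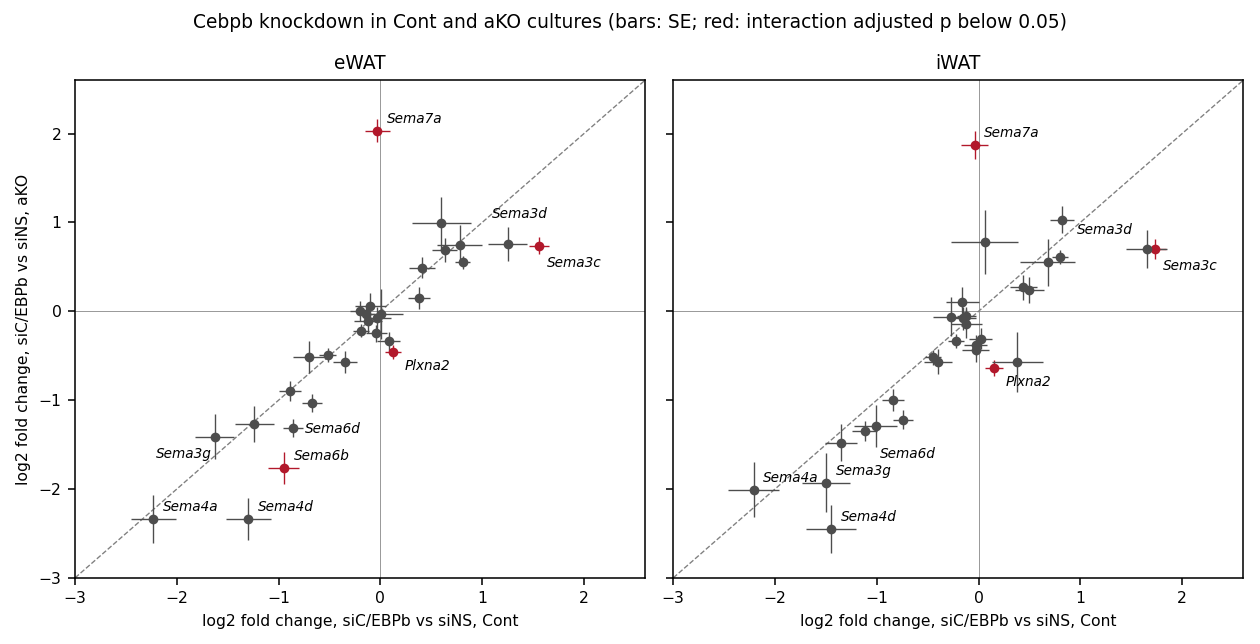
Knockdown effect in Cont (x axis) and in aKO (y axis) cultures for the 30 tested genes, as log2 fold changes of siC/EBPb against siNS in eWAT and iWAT. Bars give the SE, the dashed line equal effects, and red points an interaction with an adjusted p below 0.05. Sema7a lies at about 0 in Cont and at 2.03 and 1.87 in aKO, and Sema3c lies below the line in both depots.

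Markers of other cell types moved beside these results, and their part in them was not tested. The summed level of 10 smooth muscle and pericyte markers was 2100 to 2630 CPM in Cont siNS and 3820 to 4040 in Cont siC/EBPb, and 1630 to 2140 and 4360 to 5650 in aKO. All 10 markers of dividing cells fell in aKO with siNS and with knockdown in Cont, in both depots. That was 100%, beside 15.2% to 26.8% of all tested genes in these comparisons. Mesothelial markers, 10 listed and 7 tested, summed to 25.8 to 33.1 CPM in Cont and 5.93 to 8.27 in aKO, with either siRNA. The sums do not show the changes of single markers. Knockdown in Cont raised 4 of the 7 and lowered 1 in eWAT, and raised 4 and lowered 2 in iWAT. In aKO it moved 0 in either depot. These were 71.4% and 85.7% in Cont, beside 26.8% and 24.3% of all tested genes, and 0% in aKO, beside 35.7% and 31.3%. Of 13 adipocyte markers, 5 rose in eWAT aKO and 2 in iWAT aKO with siNS, and none fell. These were 38.5% and 15.4% beside 20.4% and 15.2% of all tested genes. Knockdown in aKO raised 1 and lowered 10 in eWAT, and raised 1 and lowered 9 in iWAT, or 84.6% and 76.9% beside 35.7% and 31.3%. In Cont it raised 1 and lowered 3 in each depot, or 30.8% beside 26.8% and 24.3%. Of 10 fibroblast and progenitor markers, knockdown in Cont raised 1 and lowered 4 in eWAT, and raised 1 and lowered 5 in iWAT. These were 50% and 60%, beside the same shares of all. In aKO it raised 1 and lowered 6 in eWAT, and raised 1 and lowered 7 in iWAT, or 70% and 80% beside 35.7% and 31.3%. With siNS, 5 were higher and 1 lower in eWAT aKO, and 3 and 1 in iWAT aKO, or 60% and 40% beside 20.4% and 15.2%.

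Since Cebpb was the gene knocked down, the promoters were read for the core of the C/EBP binding motif, TTGCNNAA, on either strand. RefSeq gave 37 promoters for 26 of the 33 members on GRCm38.p6, and the 250 bases before each start were used. The core was found in 2 of 37 promoters (5.41%), those of Plxna3 and 1 of several of Sema4a, and in 9.56% of the 32851 promoters of all genes. The full palindrome TTGCGCAA, which contains the core, was in 0 of 37 and in 0.164% of all. The stretches below are those of Sema7a (chr9:57939862-57940111, plus strand), Plxnd1 (chr6:115995006-115995255, minus strand), Sema3d (chr5:12382916-12383165, plus strand) and Plxna3 (chrX:74328816-74329065, plus strand). The first 3 are shown as genes with large responses and no core here, although the knockdown change of Sema7a in Cont did not pass. Plxna3 is shown as a gene with a core, in capitals, whose match begins 214 bases before the start. Sema4a, whose promoter with a core is not printed, had group means of 4.38 CPM with siNS and 0.928 with siC/EBPb in eWAT Cont. In iWAT Cont they were 3.92 and 0.84. The choice of stretches is therefore no comparison of genes with and without a core.
Sema7a: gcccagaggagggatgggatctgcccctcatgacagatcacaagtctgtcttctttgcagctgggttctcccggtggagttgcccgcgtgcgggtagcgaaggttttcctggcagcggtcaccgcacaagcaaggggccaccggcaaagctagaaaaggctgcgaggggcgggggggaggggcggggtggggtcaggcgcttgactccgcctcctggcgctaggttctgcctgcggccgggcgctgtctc
Plxnd1: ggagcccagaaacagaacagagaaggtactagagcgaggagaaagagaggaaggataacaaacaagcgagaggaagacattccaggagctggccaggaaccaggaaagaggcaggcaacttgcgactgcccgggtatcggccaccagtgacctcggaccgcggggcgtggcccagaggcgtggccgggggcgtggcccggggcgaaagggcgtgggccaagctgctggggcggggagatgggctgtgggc
Sema3d: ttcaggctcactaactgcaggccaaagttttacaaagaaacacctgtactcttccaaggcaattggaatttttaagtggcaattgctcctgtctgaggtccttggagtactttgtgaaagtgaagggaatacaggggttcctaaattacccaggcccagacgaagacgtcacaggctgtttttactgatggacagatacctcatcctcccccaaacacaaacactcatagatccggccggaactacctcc
Plxna3: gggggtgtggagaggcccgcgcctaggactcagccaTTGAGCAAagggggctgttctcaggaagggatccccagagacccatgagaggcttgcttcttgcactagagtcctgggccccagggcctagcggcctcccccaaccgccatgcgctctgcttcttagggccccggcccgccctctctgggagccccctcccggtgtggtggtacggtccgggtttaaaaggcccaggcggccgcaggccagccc
The stretches differ in base composition, with 66.4%, 64.8%, 46.8% and 68.0% G or C in the order printed. A match or its absence describes these letters in this window only.

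None of the 30 members passed between iWAT and eWAT in Cont siNS with edgeR's quasi-likelihood test, where 1.20% of all tested genes did, 5 had an unadjusted p under 0.05, DESeq2 called 0 and limma voom with sample weights called 3. Sema3g had 5.84, 3.66 and 3.85 CPM in iWAT and 7.87, 6.99 and 6.55 in eWAT, so that its groups did not overlap. Its difference was -0.65 ± 0.18 (adjusted p = 0.0693), and with the replicate number as a block it passed (-0.67 ± 0.15, adjusted p = 0.0346). Sema4c was at -0.37 ± 0.11 (adjusted p = 0.0888) and passed with no filter (0.0109), limma voom (0.0206) and on its own groups (0.0245). Without the shallow library, which is in neither group but shares the estimate of the spread, Sema3g, Sema4c and Plxna1 passed (adjusted p = 0.0207, 0.00892 and 0.00413). In that fit 7.5% of all tested genes passed, beside 1.20% with all libraries. The differences between depots in the genotype effect with siNS lay between -0.49 and 0.60, and those in the knockdown effect in Cont between -0.54 and 0.42. None passed, as for 0% of all genes, with 1 and 0 members at an unadjusted p under 0.05 and 0 by DESeq2, by voom and with the replicate number as a block.

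The partners of these receptors were read from lists of other genes. Of 20 coreceptors and members of the VEGF system, 19 were tested, with 3 higher and 8 lower in eWAT aKO than in Cont under siNS, and 2 and 5 in iWAT, or 57.9% and 36.8% beside 20.4% and 15.2% of all tested genes. Vegfd, a lymphatic growth factor, rose by 0.83 ± 0.071 and 0.80 ± 0.073 in aKO with siNS and fell by 1.14 ± 0.071 and 1.12 ± 0.073 with knockdown in aKO. Flt1, a VEGF receptor, fell in aKO by 1.01 ± 0.13 and 0.98 ± 0.15. The endothelial markers Cdh5 and Pecam1 fell there too, by 1.71 ± 0.23 and 1.03 ± 0.24 in eWAT and by 1.40 ± 0.29 and 1.46 ± 0.31 in iWAT, and their part in the change of Flt1 was not tested. With knockdown in Cont, 4 of 19 rose and 6 fell in eWAT, and 3 and 6 in iWAT, or 52.6% and 47.4% beside 26.8% and 24.3% of all. Chl1, an adhesion molecule that binds Nrp1, changed by -2.83 ± 0.16 and -2.69 ± 0.17 there, and L1cam, its relative, by -1.28 ± 0.21 and -1.57 ± 0.24. Ptprz1, a receptor phosphatase, rose by 2.80 ± 0.26 and 2.93 ± 0.28. Trem2, a partner of Plxna1 on myeloid cells, fell by 0.94 ± 0.18 and 1.15 ± 0.20, beside the leukocyte markers above.

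Of 47 cytoplasmic transducers of plexins, 46 were tested. With knockdown in Cont 7 rose and 4 fell in eWAT and 7 and 5 in iWAT, or 23.9% and 26.1% of those tested, near the 26.8% and 24.3% of all tested genes. Fyn, a kinase that acts downstream of Plxna2, rose by 0.64 ± 0.078 and 0.50 ± 0.08, and Farp1, a RhoGEF that binds class A plexins, by 0.56 ± 0.067 and 0.52 ± 0.068. Mical2, of the family of flavoenzymes that oxidise actin, rose in aKO with knockdown by 0.94 ± 0.096 and 0.79 ± 0.10 and had interactions of 0.81 ± 0.13 and 0.56 ± 0.14. With siNS, 3 transducers rose and 5 fell in eWAT aKO and 1 and 3 in iWAT aKO, or 17.4% and 8.7% beside 20.4% and 15.2% of all tested genes. With knockdown in aKO, 12 rose and 6 fell in eWAT and 13 and 6 in iWAT, or 39.1% and 41.3% beside 35.7% and 31.3%.

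All 10 listed proteases and matrix enzymes that can process or accompany semaphorins were tested. In aKO with siNS, 1 was higher and 4 lower in eWAT, and 2 and 3 in iWAT. That was 50% in each depot, beside 20.4% and 15.2% of all tested genes. Knockdown in Cont raised 1 and lowered 4 in eWAT, and raised 1 and lowered 3 in iWAT. These were 50% and 40%, beside 26.8% and 24.3% of all. Furin-type convertases cleave class 3 semaphorins, and 2 of them changed in opposite directions. Pcsk5 fell with knockdown in Cont by 1.5 ± 0.11 and 1.48 ± 0.11 and in aKO with siNS by 1.20 ± 0.11 and 1.08 ± 0.12, while Pcsk6 rose by 1.25 ± 0.082 and 1.05 ± 0.09, and by 0.80 ± 0.085 and 0.74 ± 0.099. Adam17, a sheddase of membrane proteins, fell with knockdown by 0.72 ± 0.069 and 0.75 ± 0.07 in Cont. Of 39 genes of other guidance families, 30 were tested, and 8 rose and 3 fell with knockdown in eWAT Cont and 9 and 2 in iWAT Cont, or 36.7% in each depot beside 26.8% and 24.3% of all tested genes. Slit2, a secreted repellent, rose by 1.01 ± 0.079 and 1.05 ± 0.079 and Ephb3, an ephrin receptor, by 0.84 ± 0.098 and 0.84 ± 0.10. Under siNS, 9 of 30 were higher in eWAT aKO than in Cont and 3 were lower, while in iWAT 12 were higher and 0 lower, or 40% in each beside 20.4% and 15.2% of all, among the risers Epha3, another ephrin receptor, with 0.93 ± 0.10 and 1.00 ± 0.12.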

How the data were processed

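The submitters' processing notes name cutadapt 2.7, TopHat2 2.1.1, HTSeq and edgeR as tools and GRCm38 as the genome build. The raw count matrix that the authors deposited was used. Counter lines that name no gene (27.5% to 39.5% of a library's entries, and 95.94% in iWAT aKO siNS replicate 2) stayed out of totals and tests. In R 4.3.3, edgeR 4.0.16 was run with a minimum count of 10 in its expression filter, TMM scaling, robust quasi-likelihood fits, 1 mean per group over 24 libraries, and Benjamini-Hochberg adjustment over 14785 genes at 0.05. On simulated data for eWAT aKO against Cont (siNS, 14473 genes), 51 of 67 genes changed 1.5-fold were recovered, 59 of 67 changed 2-fold and 66 of 66 changed 4-fold, with 8 false calls. Alternatives were DESeq2 1.42.0 (size factors, Wald test), limma 3.58.1 voom with sample weights, no filter, a stricter filter (1 CPM in 12 libraries), only the groups compared, a replicate block, and each library left out. Leaving out the shallow library was added after seeing the data for 4 comparisons that do not hold it. Same-numbered Cont siNS libraries of the 2 depots deviated together (r = 0.27, 0.425 and 0.312 over 8159 genes), as did those of aKO siC/EBPb (0.748, 0.424 and 0.537), while Cont siC/EBPb had 0.0796, 0.235 and 0.16 and aKO siNS -0.528, -0.174 and 0.541, so the depot comparisons were treated as paired by number as an alternative, and other comparisons were not. Members and lists were chosen with earlier results of these data known. All members called in a comparison could be named, and from each list up to 4 called genes of smallest p. Promoters came from RefSeq.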

Additional observations from a re-analysis of the deposited data

Results flagged for a closer look

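The response to knockdown differed between aKO and Cont in a test of the difference itself for 4 members in eWAT and 3 in iWAT, with the interaction given as log2 fold change in aKO minus that in Cont. Sema7a had 2.05 in eWAT and 1.91 in iWAT. Sema3c had -0.83 and -1.03, and Plxna2 had -0.58 and -0.79. Sema6b had -0.81 in eWAT, a call that was lost without any one of 7 libraries. Less Cebpb remained under siC/EBPb in aKO than in Cont, and the part of this in these differences was not tested.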

How the results depend on the processing

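No member's called change reversed under any alternative run. Of the fitted values for members under alternatives, 5621 kept their direction and side of the threshold. Another 300 changed sign without passing in either fit, 87 newly passed and 140 no longer passed. With no filter, 6 members were called in the iWAT interaction (3 in the fit reported) and 2 between depots (0). With limma voom, 8 were called in the eWAT interaction (4) and 3 between depots. Fitted on the groups compared alone, 4 were called for aKO in iWAT with siNS (14) and 2 between depots. With the replicate block within genotype and siRNA, 1 was called between depots. With the additive replicate block, Sema6b passed for aKO in eWAT with siNS (adjusted p = 0.0426) and Plxnc1 was lost for knockdown in iWAT aKO (0.0612). Leaving out each library gave 8 to 14 members for aKO in iWAT with siNS, 5 to 10 for aKO in iWAT under siC/EBPb, 3 to 7 for the eWAT interaction, with 7 without the shallow library, and 0 to 3 between depots. Without the shallow library the share of all tested genes called rose too. It went from 6.34% to 11.2% for the eWAT interaction and from 1.20% to 7.5% between depots. For aKO in iWAT under siC/EBPb it went from 10.0% to 13.2%. Shares of all tested genes under the other alternatives are not given here. The cause of these moves was not tested. Members with few counts, such as Sema4f, Plxnb3 and Sema5b, could not be tested at this depth.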
